A study of Mus musculus with 12 samples.

Results

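The transcripts described here were measured in the adult mouse hippocampus. They come from genes known as imprinted, which are expressed mainly from 1 parental allele. Which allele was expressed in this tissue was not measured. The genes were chosen by name: 48 genes from 16 imprinted domains were listed, and all probes that the platform annotation assigns to one of those symbols were taken. Of the 48 genes, 42 had at least 1 probe, with 104 of the 45281 probes of the array. Only probes that stood above the negative controls (detection p-value under 0.05) on 6 or more of the 12 arrays were kept. This left 55 of the 104 probes and 29 of the 42 genes, against 20172 kept probes and 10936 genes with a kept probe on the whole array. The study measured total RNA on Illumina bead arrays, with 1 array per sample, and asked how drinking of ethanol by the mother in early pregnancy relates to gene expression in the brain of the offspring. The EtOH group held 6 arrays of C57BL/6J females aged 12 weeks whose dams had free choice to drink 10% (v/v) ethanol between 0.5 and 8.5 days post-coitum. The Control group held 6 arrays of females of the same strain, age and tissue. The treatment text of the labels stands on the Control samples as well, so the titles of the samples set the groups, and what the Control dams drank is not given in the sources used here. The labels do not tell litters apart, so the p-values measure only the spread between arrays, which may hold littermates.

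Imprinted genes carry methylation marks set in the egg or the sperm, and these marks decide which parental copy is transcribed after fertilization. They lie in clusters, in which a control region and often a long non-coding RNA act on several neighbours at once. In the brain some of them are known for roles in growth, feeding, maternal care and synapse function, and loss of paternal or maternal expression at the Prader-Willi and Angelman domain causes the human syndromes of those names. Exposure between 0.5 and 8.5 days post-coitum spans the days on which the early embryo, with factors such as ZFP57, keeps these marks while much of the other DNA methylation is lost. The arrays read the sum of both alleles, so a change of the expressed allele alone would not be seen. In bulk tissue, fewer cells of a type and less RNA per cell cannot be told apart either.

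The promoter windows of 4 members are shown because the results below describe them most closely: Dlk1, Meg3 and Dio3 of 1 domain, whose levels are compared array by array, and Nnat, the member with the lowest p. Each window holds 300 bases around the start of the gene, most of them upstream, in RefSeq's annotation of GRCm38.p6, 5′ to 3′, and capitals mark TGCCGC or its reverse complement GCGGCA, the hexamer that ZFP57 binds when its CpG is methylated.
Dlk1, chr12:109452573-109452872, plus strand: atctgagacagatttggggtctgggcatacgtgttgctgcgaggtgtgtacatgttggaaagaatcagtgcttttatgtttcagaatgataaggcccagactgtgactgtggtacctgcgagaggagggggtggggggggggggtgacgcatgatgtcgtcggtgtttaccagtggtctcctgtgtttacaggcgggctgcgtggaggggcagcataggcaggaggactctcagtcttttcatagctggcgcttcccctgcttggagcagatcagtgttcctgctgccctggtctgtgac
Meg3, chr12:109540746-109541045, plus strand: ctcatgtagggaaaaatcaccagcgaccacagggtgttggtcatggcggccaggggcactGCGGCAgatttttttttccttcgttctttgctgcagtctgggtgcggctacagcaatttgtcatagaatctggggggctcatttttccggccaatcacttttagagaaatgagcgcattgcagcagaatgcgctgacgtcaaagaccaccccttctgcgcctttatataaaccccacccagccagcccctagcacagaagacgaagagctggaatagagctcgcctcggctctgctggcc
Dio3, chr12:110278980-110279279, plus strand: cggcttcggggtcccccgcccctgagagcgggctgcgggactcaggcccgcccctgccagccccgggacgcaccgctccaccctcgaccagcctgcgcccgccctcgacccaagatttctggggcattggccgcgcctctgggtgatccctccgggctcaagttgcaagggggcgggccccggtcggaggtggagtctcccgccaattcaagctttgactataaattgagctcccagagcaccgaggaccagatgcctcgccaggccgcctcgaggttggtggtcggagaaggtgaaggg
Nnat, chr2:157559828-157560127, plus strand: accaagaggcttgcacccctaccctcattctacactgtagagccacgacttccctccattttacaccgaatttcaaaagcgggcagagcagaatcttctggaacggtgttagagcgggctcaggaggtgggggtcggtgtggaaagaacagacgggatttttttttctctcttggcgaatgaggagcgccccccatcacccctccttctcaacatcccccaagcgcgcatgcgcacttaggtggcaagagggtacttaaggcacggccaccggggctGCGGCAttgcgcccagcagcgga
The Dlk1 window holds 9 CpG dinucleotides and no match to the hexamer. The Meg3 window, the first of 2 in the annotation, holds 13 CpG and 1 match, far upstream of the start. The second, not shown, holds 1 CpG and no match. The Dio3 window is the richest of the 4 with 25 CpG, and it has no match. The Nnat window holds 17 CpG and 1 match, just after the start of the gene. RefSeq windows were found for 37 of the 48 genes. Among their 51 distinct windows (Snurf and Snrpn share 1), 12 held the hexamer on either strand (23.5%), against 3809 of all 32817 distinct windows (11.6%). Of the 12, 2 are windows of Mest that overlap almost completely. The windows of the members were also richer in CpG, with a median of 13 against 7, and the hexamer itself contains a CpG. A match is a run of letters and not a bound site.

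The 12 arrays were alike in brightness and detection. Median raw intensity ran from 126 to 146.9, between 19748 and 20858 probes per array were detected, and the correlation between any pair of arrays was 0.983 or higher. By title, chip 1 held EtOH 1 to 4 and Control 1 and 2, and chip 2 held EtOH 5 and 6 and Control 3 to 6. Neurons of the hippocampus were measured as labelled: 9 of 10 listed markers of its principal cells had a kept probe. Their summed level ran from 15.08 to 15.49 in EtOH and from 15.31 to 15.40 in Control (log2). Bright markers such as Cpne6, at 13.91 to 14.30, weigh most in it. Neurod6, at 5.19 to 6.05, reached down to background, since Kcnk9 was not detected at 5.28 in EtOH 3. Tissue that lies next to the hippocampus differed between arrays. Of 14 choroid plexus markers 7 had a kept probe (Folr1, Otx2, F5, Kcne2, Kcnj13, Slc4a5 and Prlr did not), and their summed level was 15.53 to 15.78 in EtOH 2, EtOH 4, Control 2 and Control 4. In the other 8 arrays it was 10.10 to 11.95. The choroid plexus markers had lower values in EtOH for 7 of the 7 genes once the chip was adjusted for, with a median difference of -0.59, although limma gave 0 of them an unadjusted p under 0.05. All 7 were high on the same 4 arrays, so they are not 7 separate observations. Only Control 4 of those arrays was on chip 2. The differences of the 12 genes with full statistics are given below also without these 4 arrays.

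Most imprinted genes of the list were transcribed in this tissue at a level the array could read. The 29 genes with a kept probe make 69.0% of the members that had any probe, where 57.4% of all named genes had a kept probe. For 26 of the 29, the brightest probe was detected on all 12 arrays, and the fewest arrays were 6, for the potassium channel gene Kcnk9. A further 13 genes had 23 probes, of which none was detected on more than 4 arrays. Among them were genes known from the placenta, Ascl2 and Phlda2, and 4 of the 5 members of the Peg10-Sgce domain: Peg10, derived from a retrotransposon, Sgce, which encodes epsilon-sarcoglycan, Asb4, a substrate adaptor of ubiquitin ligases, and Calcr, the calcitonin receptor. The others were the channel gene Kcnq1, the transporter genes Slc22a18 and Slc22a2, the zinc finger genes Zim1 and Plagl1, Magel2, a MAGE family regulator of a ubiquitin ligase, and Peg12 of the Frat family. No probe carried the names H19, Airn, Nespas, Snrpn, Slc22a3 or Zrsr1, and these 6 genes were not analysed here. For a gene with several kept probes, the brightest by its mean over the 12 arrays stands for the gene below. Several members lie within or across one another in RefSeq's gene models. Nnat lies within Blcap, Peg13 within Trappc9, Rtl1 overlaps Meg3 and Rian, Mest overlaps Copg2, and Snurf shares its transcript with Snrpn. Kcnq1ot1 also overlaps Kcnq1, and Commd1 overlaps Zrsr1. The positions of the probes were not used, so which of such neighbours a probe reads was not checked.

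Between EtOH and Control, no imprinted gene passed the threshold. limma called 0 of the 29 genes at an adjusted p under 0.05, as it called 0 of all 20172 kept probes (0%), and every member had an adjusted p of 1.00. At an unadjusted p under 0.05 it gave 2 of the 29 genes, both with lower values in EtOH, against 702 of all kept probes (3.48%). Those 2 were Nnat, a small membrane proteolipid of developing neurons, and Ube3a, the ubiquitin ligase of Angelman syndrome. The chip-adjusted log2 difference (EtOH minus Control) was above 0 in 14 members and below 0 in 15. Its median over the 29 genes was -0.0044, and over all kept probes it was 0.0025. Of the 11 genes listed as expressed from the maternal allele, 4 had a difference above 0 and 7 below, with a median of -0.04. Of the 16 listed as expressed from the paternal allele, 9 lay above and 7 below, with a median of 0.01. Grb10, whose allele depends on the cell type, and Gnas, whose allele depends on the transcript, make up the rest. The values of the groups overlapped in all 29 genes. The share of all kept probes with overlapping groups is not given here, so this count describes only the members.

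**Figure D1:**
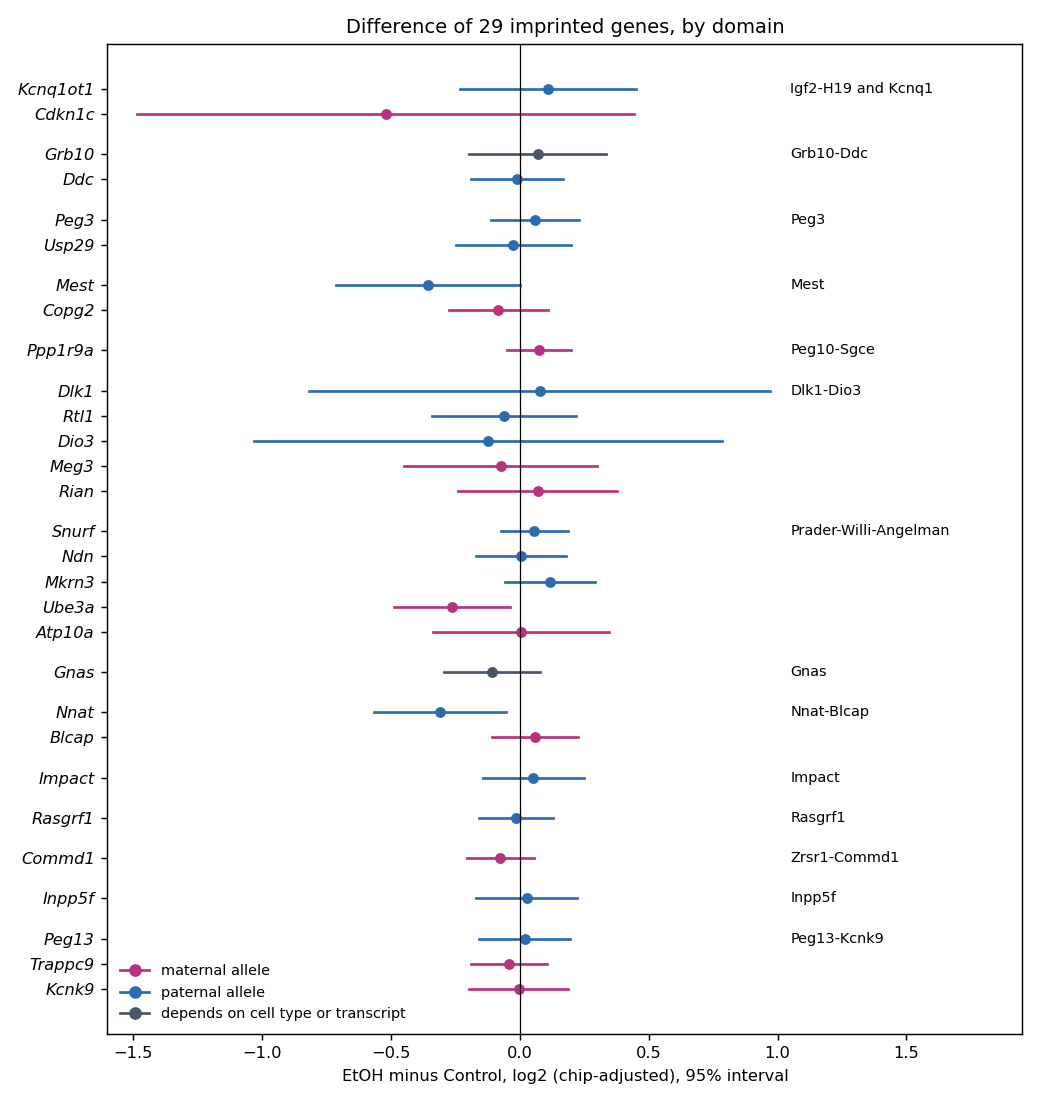
Difference between EtOH and Control (log2, adjusted for the chip) of the 29 imprinted genes with a kept probe, by domain. Lines are 95% confidence intervals from limma, and colour gives the allele listed as expressed. The intervals of Nnat and Ube3a lie below 0, that of Mest ends at 0.00, the rest span 0, and those of Cdkn1c, Dlk1 and Dio3 are the widest.

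Nnat and Blcap share a domain on chromosome 2, where the paternally expressed Nnat lies inside the maternally expressed Blcap. Nnat ranged from 9.15 to 9.80 with a median of 9.60 in EtOH, and from 9.59 to 10.14 with a median of 9.83 in Control (log2 intensity). All 6 EtOH arrays lay below the Control median, although the groups overlapped. The difference was -0.31 (95% interval -0.56 to -0.05), with an unadjusted p of 0.0214 and an adjusted p of 1.00 by limma. It was -0.24 within chip 1 and -0.38 within chip 2, and the other 2 kept probes of Nnat gave -0.13 and -0.27. Array EtOH 5 held the lowest value, and without it the difference was -0.19, with an unadjusted p of 0.117 by limma. Leaving out the 4 arrays with high choroid plexus markers gave -0.27. Markers of meninges and vascular fibroblasts were set beside Nnat array by array, and they followed it on some arrays only. Of 13 such markers 12 had a kept probe (Fmod did not), and their summed level ran from 11.74 to 13.17 in EtOH and from 12.20 to 13.41 in Control. Of the 12 genes 9 had a difference below 0 and 3 above, with a median of -0.42, and limma gave 4 of the 9 an unadjusted p under 0.05. The summed level was lowest in EtOH 5 and highest in Control 2 and Control 4, the arrays with the lowest and the 2 highest values of Nnat. EtOH 2 and EtOH 4 came next, both at 13.17, but their Nnat values of 9.80 and 9.63 lay below the Control median. These 4 arrays with the highest sums are those with high choroid plexus markers, and Slc13a4 stands on both marker lists. Dcn, another of the meninges markers, is itself listed among the other imprinted genes. The part of meninges and vascular fibroblasts in the Nnat result was not tested. Blcap, a small membrane protein, went from 10.96 to 11.22 with a median of 11.18 in EtOH, and from 10.86 to 11.18 with a median of 11.13 in Control. Its difference of 0.06 (-0.11 to 0.22) had an unadjusted p of 0.469 by limma, and it was 0.14 within chip 1 and -0.03 within chip 2. Without Control 2 it turned to -0.01. It was 0.11 without EtOH 5, 0.03 without Control 3 and 0.01 without the 4 arrays with high choroid plexus markers.

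The Prader-Willi and Angelman domain on chromosome 7 has paternally expressed genes at one end and the maternally expressed Ube3a and Atp10a at the other. Ube3a ranged from 6.67 to 7.27 with a median of 7.05 in EtOH, and from 7.14 to 7.70 with a median of 7.37 in Control. Ube3a was higher in chip 2, which held most Control arrays, than in chip 1 by 0.26. With the chip not adjusted for, again no EtOH array lay above the Control median. The difference was -0.26 (-0.49 to -0.04), with an unadjusted p of 0.0262 and an adjusted p of 1.00 by limma, and it was -0.27 within chip 1 and -0.26 within chip 2. Its 2 other kept probes disagreed with one another, at -0.12 and 0.00, and the mean of the 3 probes gave -0.13. The brightest probe gave -0.24 without the 4 arrays with high choroid plexus markers. Without EtOH 6 or without Control 2 its unadjusted p by limma was 0.0695 or 0.0743. Atp10a, a phospholipid flippase, had medians of 6.30 in EtOH and 6.37 in Control and a difference of 0.00. Its differences within the chips were opposite, at -0.23 and 0.24. Among the paternally expressed genes, Mkrn3, a makorin ubiquitin ligase known in humans for its part in the timing of puberty, ranged from 6.46 to 6.75 with a median of 6.66 in EtOH, and from 6.36 to 6.77 with a median of 6.50 in Control. Of the 6 EtOH arrays 5 lay above the Control median. The difference was 0.12 (-0.06 to 0.29), with an unadjusted p of 0.172 by limma, and it was 0.08 and 0.16 within the chips and 0.14 without the 4 arrays. Snurf, a small protein made from the transcript of the spliceosomal gene Snrpn, was among the steadiest members. It stayed between 14.67 and 14.84 in EtOH with a median of 14.77 and between 14.60 and 14.87 in Control with a median of 14.75. The difference of 0.06 (-0.07 to 0.19) had an unadjusted p of 0.373 by limma, and its other 2 probes gave -0.06 and 0.00. It was 0.08 and 0.03 within the chips, 0.02 without Control 2 and 0.03 without the 4 arrays. Ndn, which encodes the neuronal MAGE protein necdin, lay below the Control median on all 6 EtOH arrays, with medians of 12.99 and 13.08. Once the chip was adjusted for, the difference was 0.00. It was 0.14 within chip 1 and -0.14 within chip 2.

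**Figure D2:**
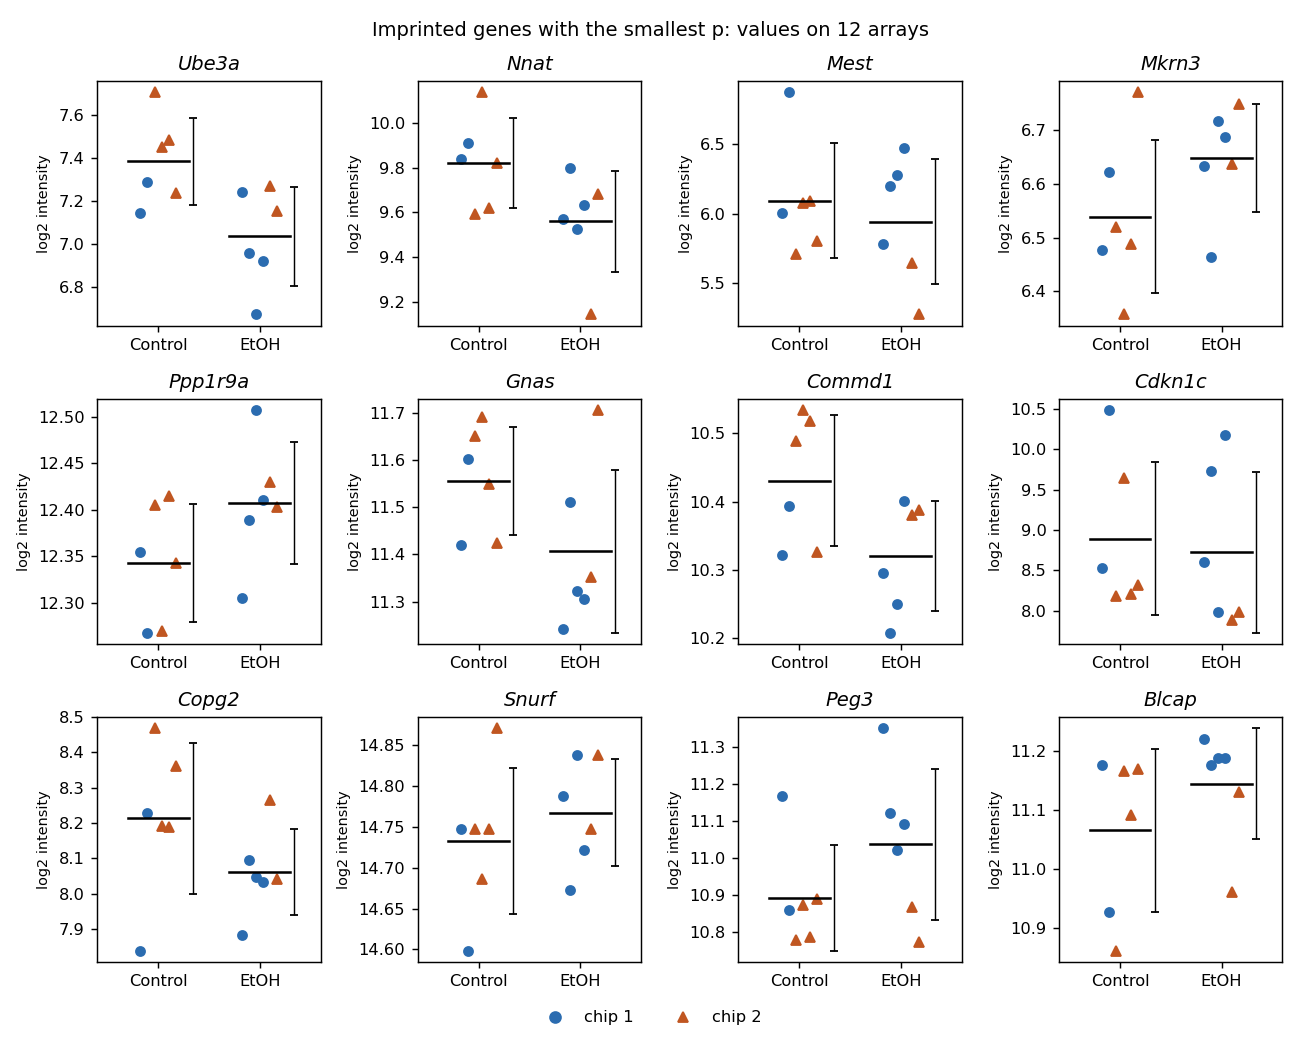
Log2 intensity of the 12 imprinted genes with the smallest unadjusted p on each of 12 arrays, in Control and EtOH, with chip 1 as circles and chip 2 as triangles; lines are group means and bars beside them are SD (n = 6 each). The groups overlap in every panel, all EtOH values of Ube3a, Nnat and Commd1 lie below the Control median, and the values of Cdkn1c split into 4 high and 8 low arrays with 2 high arrays in each group.

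Cdkn1c encodes p57, an inhibitor of cyclin-dependent kinases, and is silenced on the paternal allele through the antisense RNA Kcnq1ot1. Cdkn1c had the largest spread of any member, with a range of 2.61 on the log2 scale over the 12 arrays, and its residual SD of 0.85 exceeded that of 99.8% of all kept probes. It ranged from 7.88 to 10.17 with a median of 8.29 in EtOH, and from 8.18 to 10.48 with a median of 8.42 in Control. The 4 high arrays were Control 2 at 10.48, EtOH 4 at 10.17, EtOH 2 at 9.74 and Control 4 at 9.64. These are the 4 arrays with the high choroid plexus markers, whose summed level ran from 10.21 to 15.75 in EtOH and from 10.10 to 15.78 in Control. The other 8 arrays had Cdkn1c values from 7.88 to 8.60. The difference between the groups was -0.52 (-1.49 to 0.44), with an unadjusted p of 0.264 by limma. Within chip 1 it was -0.38 and within chip 2 it was -0.66. It was -0.28 without those 4 arrays. Single arrays moved it both ways, to -0.19 without Control 2 and -0.35 without Control 4, and to -0.92 without Control 1 (unadjusted p of 0.0613 by limma). The part of the choroid plexus in it was not tested. For Kcnq1ot1 itself 1 probe was kept, for which the annotation names no transcript. The probe of its RefSeq transcript was detected on 0 arrays. The kept probe ranged from 7.31 to 8.26 with a median of 7.81 in EtOH, and from 7.13 to 7.88 with a median of 7.61 in Control. Its difference was 0.11, and it did not divide the arrays as Cdkn1c did, since the highest values were in EtOH 4 and EtOH 1.

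Mest, a paternally expressed member of the alpha/beta hydrolase family, shares a domain on chromosome 6 with Copg2, a subunit of the COPI vesicle coat. Mest ranged from 5.28 to 6.47 with a median of 5.99 in EtOH, and from 5.71 to 6.87 with a median of 6.04 in Control. Control 2 was the highest array at 6.87 and EtOH 4 came next at 6.47, and both belong to the 4 arrays with high choroid plexus markers. The rest of those 4, EtOH 2 at 6.20 and Control 4 at 6.08, lay below EtOH 3 at 6.28, where these markers were low. The difference was -0.36 (-0.71 to 0.00), with an unadjusted p of 0.0504 by limma. Chip 1 gave -0.26 and chip 2 gave -0.46. Leaving out the 4 arrays with high choroid plexus markers gave -0.25. Without Control 2 alone it was -0.22 (unadjusted p of 0.218 by limma), and without Control 1 it was -0.54 (unadjusted p of 0.00319 by limma). The probe was not detected in EtOH 6, its lowest array. Its 2 other kept probes gave 0.20 and -0.02, and the mean of the 3 probes gave -0.06. The part of the choroid plexus in this difference was not tested. Copg2 ranged from 7.88 to 8.26 with a median of 8.05 in EtOH, and from 7.84 to 8.47 with a median of 8.21 in Control. Of the 6 EtOH arrays 5 lay below the Control median. The difference was -0.08 (-0.28 to 0.11), with an unadjusted p of 0.365 by limma, and -0.02 and -0.15 within the chips. It was -0.07 without the 4 arrays, -0.03 without EtOH 6 or without Control 2, -0.05 without Control 3 and -0.17 without Control 1.

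**Figure D3:**
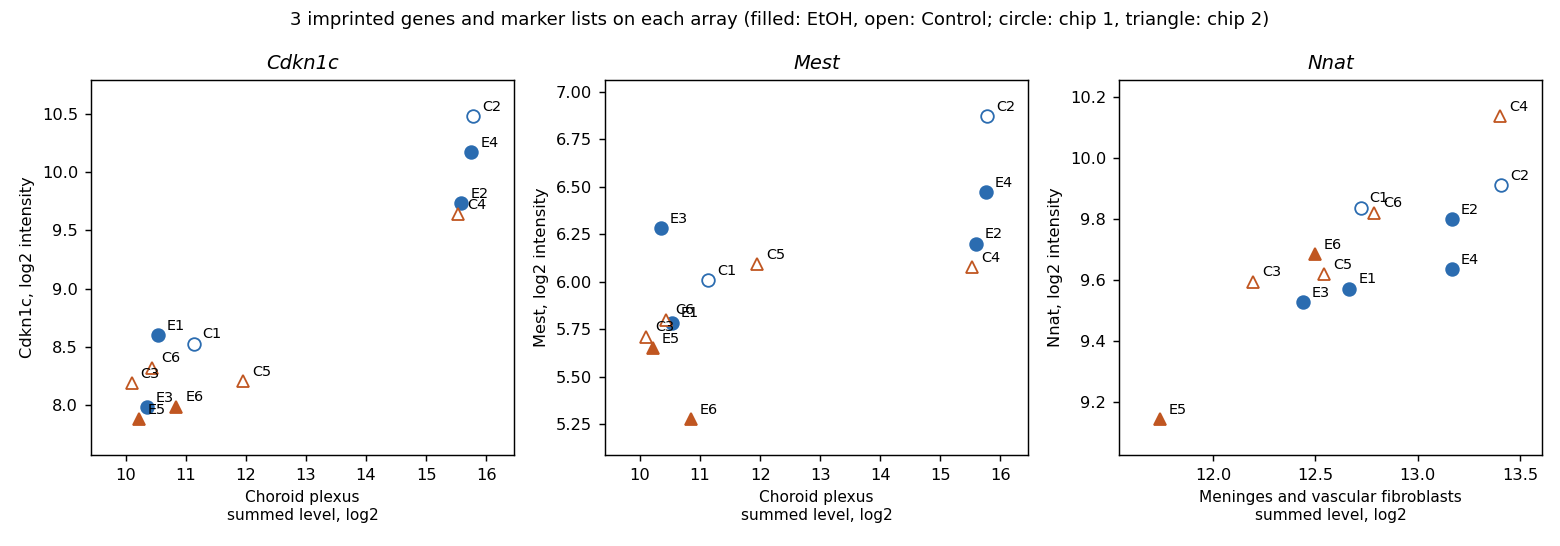
Log2 intensity of Cdkn1c, Mest and Nnat on each array against the summed level (log2) of choroid plexus markers (Cdkn1c, Mest) or of meninges and vascular fibroblast markers (Nnat); filled points are EtOH (E), open points Control (C), circles chip 1 and triangles chip 2. Cdkn1c is at 9.64 or above on the 4 arrays with a choroid plexus level of 15.53 or above and at 8.60 or below on the other 8, and EtOH 5 is lowest for both Nnat and the meninges list.

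The Dlk1-Dio3 domain on chromosome 12 holds 3 paternally expressed protein genes and the maternally expressed non-coding RNAs Meg3 and Rian, and all 5 members were measured. Dlk1, a transmembrane protein related to Notch ligands, ranged from 5.56 to 7.73 with a median of 6.67 in EtOH, and from 5.70 to 7.53 with a median of 6.50 in Control. Dio3, the deiodinase that inactivates thyroid hormone, ranged from 5.19 to 7.18 with a median of 6.68 in EtOH, and from 5.28 to 7.54 with a median of 6.73 in Control. Its 2 lowest values, in EtOH 5 and Control 2, were not detected above the negative controls and are only upper bounds of a level. Dlk1 spread by 2.17 on the log2 scale between the lowest and the highest array, and both groups covered most of that range. The residual SDs of Dlk1 and Dio3, 0.79 and 0.80, exceeded those of 99.7% of all kept probes. The differences between the groups were 0.08 (-0.82 to 0.97) for Dlk1 and -0.12 (-1.03 to 0.78) for Dio3. Within the chips they were opposite. Dlk1 gave 0.79 in chip 1 and -0.63 in chip 2, and Dio3 gave 0.52 and -0.76. Rtl1, which encodes a protein derived from a retrotransposon, had medians of 7.68 in EtOH and 7.78 in Control and a difference of -0.06. Meg3 had medians of 10.22 and 10.03 and a difference of -0.07. For Rian, the host of small nucleolar RNAs, the medians were 7.20 and 7.01 and the difference was 0.07.

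Correlations across arrays among Dlk1, Rtl1, Dio3 and Meg3 were above 0, but none passed the threshold after adjustment over all 28 pairs tested. All 4 genes were below their own mean in EtOH 5, Control 2 and Control 3 and above it in EtOH 2, Control 1 and Control 6, and on the other 6 arrays they differed in sign. The largest correlation over the 12 arrays was that of Rtl1 with Meg3. It had Pearson's r = 0.764 (permutation p = 0.00435) and Spearman's rho = 0.776 (permutation p = 0.00438). The gene models of Rtl1 and Meg3 overlap, and which of them each probe reads was not checked. Rtl1 had 1 kept probe, and its other probe was detected on 0 arrays. Dlk1 and Dio3 had r = 0.712 (permutation p = 0.00977) and rho = 0.720 (permutation p = 0.0108). Dlk1 had r = 0.692 (permutation p = 0.0159) and rho = 0.692 (permutation p = 0.0163) with Rtl1. With Meg3, Dlk1 had r = 0.678 (permutation p = 0.0171) and rho = 0.664 (permutation p = 0.0222). The adjusted permutation p of r was 0.120 for each of these 4 pairs, and the adjusted p of rho was 0.109, 0.109, 0.114 and 0.124 in the same order. Dio3 with Meg3 (r = 0.616, adjusted permutation p = 0.187; rho = 0.573, adjusted 0.194) and Rtl1 with Dio3 (r = 0.583, adjusted permutation p = 0.196; rho = 0.448, adjusted 0.318) followed. All 6 correlations were above 0 within each chip as well, from 0.466 to 0.992 in chip 1 and from 0.522 to 0.830 in chip 2. After the 2 arrays farthest from the median were left out they ran from 0.474 to 0.872, and without the 4 arrays with high choroid plexus markers from 0.455 (Dlk1 with Rtl1) to 0.905 (Dlk1 with Dio3). Those with Dio3 include its 2 arrays not detected above background. The r of Rian with the other 4 lay between -0.164 and 0.368, and in chip 2 all 4 values were below 0. Without the 4 arrays the r of Rian was 0.587 with Dlk1, 0.435 with Meg3, 0.418 with Dio3 and -0.00758 with Rtl1, and without the 2 farthest arrays it was 0.530, 0.162, 0.458 and -0.370. Whether the pairs of Rian differ from the others was not tested.

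The arrays with high and low Dlk1 domain levels also differed in the summed level of markers of neighbouring brain regions. Of 9 thalamus markers 6 had a kept probe (Lef1, Plekhg1 and Synpo2 did not), and their summed level ran from 11.64 to 12.59 in EtOH and from 11.35 to 12.21 in Control. It was highest in EtOH 2 and EtOH 1, at 12.59 and 12.53, and lowest in Control 2 and EtOH 5, at 11.35 and 11.64. The brightest markers weigh most in this sum, and the thalamus markers did not all move together. Between EtOH 1 and Control 2, Slc17a6 (11.72 and 9.38), Ntng1 and Rora followed the sum. Prkcd (7.60 and 8.42), Tcf7l2 and Zic1 (6.645 and 7.773) went the other way. The summed level of the 6 neocortex markers with a kept probe ran from 12.39 to 13.10 in EtOH and from 12.32 to 12.90 in Control, with Control 2 lowest and EtOH 1 highest. Dlk1 was highest in EtOH 2, at 7.73, and Control 4, at 7.53, while the thalamus list in Control 4 was 11.97. The part of these regions in the levels of the domain was not tested.

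**Figure D4:**
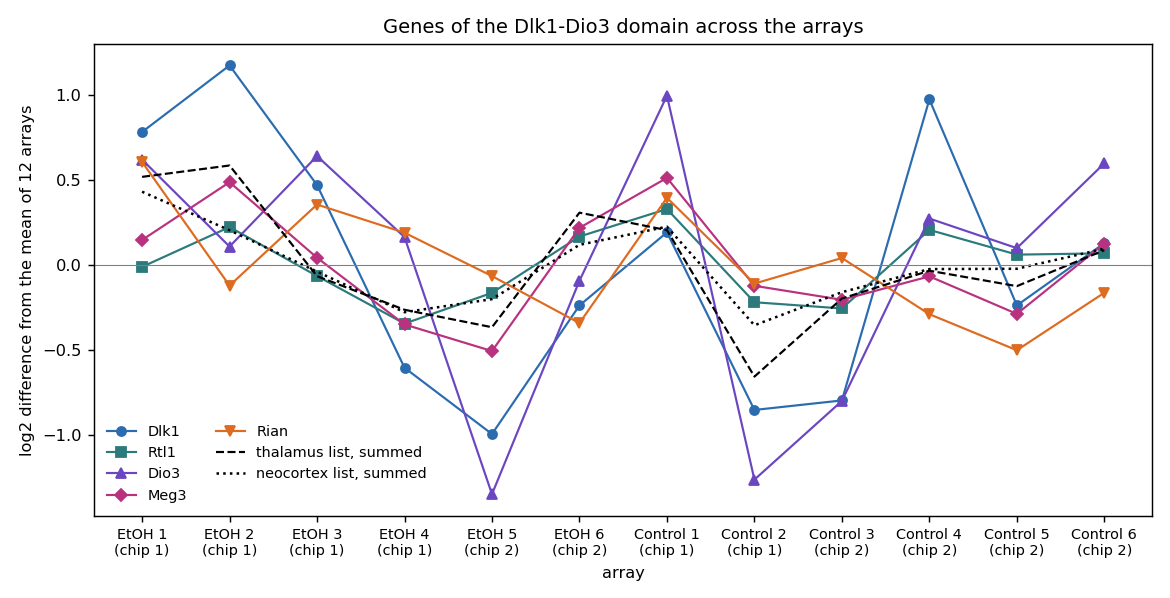
Log2 difference of each gene of the Dlk1-Dio3 domain from its own mean over the 12 arrays, by array, with the summed levels of the thalamus and neocortex marker lists as dashed and dotted lines. Dlk1, Rtl1, Dio3 and Meg3 are all below their means in EtOH 5, Control 2 and Control 3, and Rian is above its mean in Control 3. Dio3 was not detected in EtOH 5 and Control 2.

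No pair of neighbours passed the threshold when all pairs within domains were counted. The 29 genes gave 28 pairs, from 23 genes in 8 domains, and 0 of the 28 had an adjusted permutation p under 0.05, while 16 had a positive r. Outside the Dlk1-Dio3 domain the largest r was that of Snurf with Mkrn3, at 0.597 (adjusted permutation p = 0.190), with rho = 0.710 (adjusted 0.109). It was 0.362 in chip 1, 0.936 in chip 2 and 0.904 without the 4 arrays with high choroid plexus markers. Peg3 and Usp29, whose promoter windows overlap head to head, had r = 0.469 (adjusted permutation p = 0.306) and rho = 0.483 (adjusted 0.318), with 0.708 in chip 1, 0.634 in chip 2 and 0.721 without those arrays. The lowest r was that of Peg13, a non-coding RNA, with Trappc9, in whose intron it lies. It was -0.540 (adjusted permutation p = 0.219), with rho = -0.552 (adjusted 0.204), and it was below 0 in both chips, at -0.744 and -0.465, and -0.765 without those arrays. For Nnat and Blcap the chips were opposite, with r = -0.690 and 0.651. The points of all pairs share arrays, chips and dissections.

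**Figure D5:**
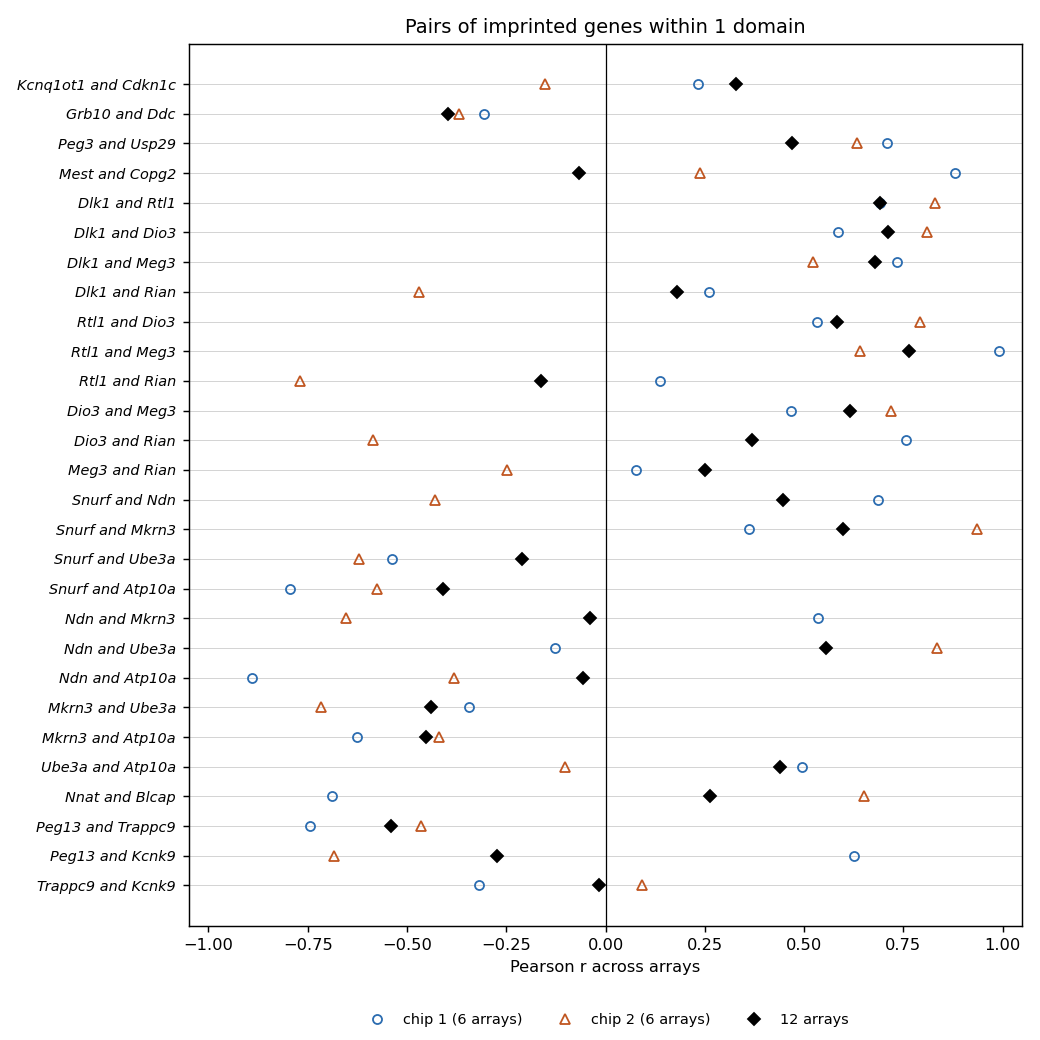
Pearson's r across arrays for the 28 pairs of imprinted genes within 1 domain, over all 12 arrays (diamonds) and over the 6 arrays of chip 1 (circles) and of chip 2 (triangles). The 6 pairs among Dlk1, Rtl1, Dio3 and Meg3 lie above 0 in all 3 sets, and pairs with Rian have opposite signs in the chips.

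In the remaining domains the differences between EtOH and Control were small. Gnas, the stimulatory G protein alpha subunit, ranged from 11.24 to 11.71 with a median of 11.34 in EtOH, and from 11.42 to 11.69 with a median of 11.58 in Control. The difference was -0.11 (-0.29 to 0.08), with an unadjusted p of 0.228 by limma, and -0.17 and -0.05 within the chips. It was -0.06 without the 4 arrays with high choroid plexus markers, without EtOH 5 and without Control 2, and -0.19 without EtOH 6 (unadjusted p of 0.0441 by limma). Of its 4 other kept probes, which may read different transcripts of this locus, 2 lay above 0 and 2 below, between -0.13 and 0.06. Commd1, of copper handling and endosomal sorting, ranged from 10.21 to 10.40 with a median of 10.34 in EtOH, and from 10.32 to 10.53 with a median of 10.44 in Control. All 6 EtOH arrays lay below the Control median, with the chip not adjusted for, and Commd1 was higher in chip 2 by 0.10. The difference was -0.08 (-0.21 to 0.05), with an unadjusted p of 0.229 by limma, and -0.07 and -0.08 within the chips and -0.06 without the 4 arrays. Ppp1r9a, which encodes neurabin, an actin-binding protein of dendritic spines, stayed between 12.31 and 12.51 in EtOH with a median of 12.41 and between 12.27 and 12.42 in Control with a median of 12.35. It gave 0.07 (-0.05 to 0.20), with an unadjusted p of 0.215 by limma, and 0.09 and 0.06 within the chips and 0.04 without the 4 arrays. Peg3, a zinc finger protein, ranged from 10.77 to 11.35 with a median of 11.06 in EtOH, and from 10.78 to 11.17 with a median of 10.87 in Control. Its 0.06 (-0.11 to 0.23) had an unadjusted p of 0.462 by limma, and it was 0.13 in chip 1, -0.01 in chip 2 and -0.02 without Control 2. It was 0.01 without the 4 arrays, 0.02 without EtOH 1, and 0.10 without EtOH 6 or without Control 1.

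The other members differed by 0.07 or less in size on their brightest probe, once the chip was adjusted for. The medians given here are not adjusted for it. Usp29, a ubiquitin-specific protease, had medians of 8.73 in EtOH and 8.81 in Control. For Grb10, an adaptor that restrains insulin and growth factor receptor signalling, they were 9.20 and 9.15, and for its neighbour Ddc, the aromatic L-amino acid decarboxylase, they were 7.45 and 7.50. The second kept probe of Ddc gave 0.25 (-0.004 to 0.510), with an unadjusted p of 0.0532 by limma, where the first gave -0.01. Impact, an inhibitor of the kinase GCN2, had medians of 12.93 and 12.74 and a difference of 0.05. Rasgrf1, a calcium-dependent exchange factor for Ras known for its part in memory, had medians of 14.61 and 14.60 and a difference of -0.02, with its 3 other kept probes between 0.00 and 0.02. Inpp5f, a phosphoinositide phosphatase, differed by 0.03. In the domain of Kcnk9, the differences were 0.02 for Peg13, -0.04 for Trappc9, a subunit of the TRAPP tethering complex, and 0.00 for Kcnk9. Over the 16 genes with more than 1 kept probe, 13 of the 26 other probes had the sign of the brightest one.

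Imprinted genes ranged from some of the most variable probes on the array to some of the steadiest. Beside Cdkn1c, Dlk1 and Dio3, Meg3 (residual SD 0.32), Mest (0.30), Kcnq1ot1 (0.29) and Atp10a (0.29) exceeded at least 90.1% of all kept probes. At the other end Ppp1r9a (0.066), Snurf and Commd1 (0.075 each) exceeded between 3.94% and 7.48%. The median over the 29 genes was 0.148, and over all genes, each by its brightest probe, it was 0.142. The chip was a further source of difference. limma called 148 of 20172 probes between the chips at an adjusted p under 0.05 (0.734%) and 0 of the 29 imprinted genes, while at an unadjusted p under 0.05 it gave 8 of the 29 against 3501 of all kept probes (17.4%). The lowest belonged to Mest, lower in chip 2 by 0.62 (adjusted p = 0.0918). Peg3 (-0.25) and Inpp5f (0.28, chip 2 minus chip 1) came next, with adjusted p of 0.134 and 0.145 by limma.

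Imprinted genes outside the list and the proteins that set and keep imprints gave no call either. Of 37 other imprinted genes 23 had a kept probe, with 8 differences above 0, 15 below and a median of -0.02. limma called 0 of them, and 0 had an unadjusted p under 0.05. The smallest p above 0 was that of Begain, at the edge of the Dlk1-Dio3 domain, with 6.12 ± 0.25 in EtOH and 5.95 ± 0.27 in Control (SD, n = 6 each). Its difference was 0.18 (-0.14 to 0.51). Below 0 it was Osbpl5, an oxysterol-binding protein, with 6.68 ± 0.19 and 6.89 ± 0.18, and a difference of -0.21 (-0.45 to 0.03). Of 25 genes of imprint establishment and maintenance 17 had a kept probe, 13 above 0 and 4 below, with a median of 0.02, and limma called 0 of them, with 0 at an unadjusted p under 0.05. Dnmt3l, the cofactor of de novo DNA methylation in germ cells, stood at 5.68 ± 0.34 in EtOH and 5.42 ± 0.31 in Control. Its difference was 0.35 (-0.02 to 0.72). The lowest Dnmt3l values, 5.27 in EtOH and 5.12 in Control, lie near background, since Kcnk9 was not detected at 5.28 in EtOH 3. Mbd3, a methyl-CpG-binding domain protein, stood at 9.04 ± 0.16 and 9.18 ± 0.09, with a difference of -0.09 (-0.26 to 0.07). The groups overlapped in all 4 of these genes.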

How the data were processed

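Total RNA of 12 hippocampi was hybridised to Illumina bead arrays. Per the file headers, the first deposited table gives each probe a linear, unnormalized intensity on every array and, next to it, a detection p-value. The submitters' processing notes name GenomeStudio 1.9.0, and further steps of the authors are not given in the sources used here. A second deposited table held, by its values, quantile-normalized intensities of the same arrays and served as an alternative.

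Intensities were background-corrected and quantile-normalized with neqc (limma 3.58.1, R 4.3.3, offset 16), which gives log2 values. Kept probes had a detection p-value under 0.05 on at least 6 of 12 arrays. Groups were compared over all 20172 kept probes with limma (lmFit, eBayes, two-sided), the chip as a fixed term and Benjamini-Hochberg adjustment. The group values printed beside a difference are not adjusted for the chip. Pairs within a domain were correlated over arrays with 100000 two-sided permutations each. The fit was tested on simulated data.

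The members, gene lists and tests were chosen with earlier results of these data known. Full statistics went to genes with an unadjusted p under 0.05 on any kept probe and then to those with the smallest p, up to 12 genes, and in each of the 2 companion lists the smallest p in each direction was named. Marker levels are the log2 of summed linear levels of the kept markers. The number of arrays limits the precision.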

Additional observations from a re-analysis of the deposited data

Results flagged for a closer look

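In 5 of 58 groups of 6 arrays, 1 array of an imprinted gene stood far from the other 5, where chance gives about 1 in 20 groups, or 2.9. Ddc was 7.73 in Control 1, with the nearest Control array at 7.51. Peg3 was 11.17 in the same array, with the nearest at 10.89. Mest was 6.87 in Control 2, with the nearest at 6.09. Dio3 was 5.19 in EtOH 5, with the nearest EtOH array at 6.45, and that lowest value was not detected above the negative controls. Blcap was 10.96 in EtOH 5, with the nearest at 11.13. Control 2 was among the 4 arrays with high choroid plexus markers, and EtOH 5 was the lowest array for the meninges list. Their part in these values was not tested.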

How the results depend on the processing

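The count of imprinted genes called by limma was 0 in the main setting and in all 27 alternatives, 12 of which left out 1 array each, and the count over all probes was 0 in the 26 run on single probes. The count at an unadjusted p under 0.05, 2 of 29, became 0 with median scaling, with chip 1 alone, without the 4 arrays with the highest Ttr and with the mean of a gene's probes. It became 1 with chip 2 alone and 4 of 42 with no filter on dim probes, and leaving out each array in turn gave 1 to 3, with 1 without EtOH 5. The cause of these changes was not tested. Single chips and 8 arrays leave fewer samples, whereas median scaling and averaging over probes kept all 12 arrays. The median difference moved little, from -0.035 to 0.0395 over the single arrays left out. Median scaling shifted the median of all probes to 0.06 and the share of members above 0 from 48.3% to 65.5%, and that share was 34.5% in chip 2 alone, 37.9% without the 4 arrays, 27.6% without Control 2 and 62.1% without Control 1. Peg3 reversed with chip 2 alone (-0.0123), without Control 2 (-0.0159; -0.0159 to 0.0991 over the single arrays left out) and with the mean of its probes (-0.0031). Blcap reversed with chip 2 alone (-0.0261) and without Control 2 (-0.0102 to 0.1097 over the single arrays left out). The other 10 genes with full statistics kept their sign in every alternative run. Among the within-domain pairs, 1 passed in place of 0 with median scaling (Snurf and Ndn, r = 0.918), without the 4 arrays (Dlk1 and Dio3, 0.905), without the 2 farthest arrays (Dlk1 and Dio3, 0.872) and on residuals after group and chip (Rtl1 and Meg3, 0.861). Leaving out each array in turn gave 0 to 0 pairs.

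Samples of equal replicate number did not clearly pair: their deviations correlated at 0.0790 to 0.268, 5 of 6 over 0.1, and 4 of 12 arrays correlated best with their own number. A fit with the replicate block and the chip gave 0 called members, 2 at an unadjusted p under 0.05 and a median difference of 0.02. Those 2 were Nnat (-0.25) and Mest (-0.47), in place of Nnat and Ube3a (-0.13). Their unadjusted p by limma in this fit was 0.0428 for Nnat, 0.00114 for Mest and 0.264 for Ube3a.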
